A study of Caenorhabditis elegans with 2 samples.

Results

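The regions described here are those whose summit lay within 200 bp of an annotated transcript start of a protein-coding gene and more than 200 kb from a chromosome end, in the list of regions deposited for each of 2 ChIP-seq replicates. They numbered 3077 of the 29119 regions over 200 kb from chromosome ends in replicate 1 and 3122 of 29167 in replicate 2, and are called start regions below. The other regions of the same stretches numbered 26042 in replicate 1 and 26045 in replicate 2. Among the listed regions, position and annotation alone chose the members, and signal, rank, sequence and overlap between replicates were not used. The rule itself was set with earlier results of these data known. The lowest signal value in these stretches was 7.51 in replicate 1 and 6.09 in replicate 2, so comparisons of signal cover listed regions only.

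Whole worms (Caenorhabditis elegans, a nematode) were taken at L1, the larval stage that follows hatching, with males and females pooled. Both samples were biological replicates of 1 group, strain OP196 from the CGC, of genotype unc-119(ed3) III with the integrated transgene wgIs196 for eGFP-tagged SPTF-1. The labels name the antibody only by its target, and they do not say which promoter or cells drive the tagged protein, so any cell type of the larva may contribute. Neither another group nor a control library is part of the data used here, and comparisons are between classes of regions within each list. Each list held 30000 regions of equal width, 336 bp in replicate 1 and 350 bp in replicate 2. The file records call these lists peaks and background, meant as input for the irreproducible discovery rate, so a listed region is not necessarily a peak. The summit was the middle of the region in each case. Read depth was unknown, and the scale of the signal value, by which regions were ranked from 1 (highest), was not stated.

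SPTF-1 belongs to the Sp family of zinc finger proteins. Its relatives in other animals bind GC-rich elements called GC boxes, many of which lie in promoters close to the place where transcription starts. In C. elegans many messenger RNAs are trans-spliced, which means that the first stretch of the transcript is replaced by a spliced leader. An annotated start in this species therefore often marks a splice site that lies downstream of the place where transcription begins.

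Sequences from 50 bp before to 50 bp after the summit are given for 4 start regions, on the WBcel235 assembly (the same build as ce11) and on the strand of the gene. That of tim-1 (chrIII:12250298-12250398, minus strand) was a start region of the authors' optimal list of reproducible regions. Those of sri-70 (chrV:17302917-17303017, plus strand) and ZK896.5 (chrIV:12879716-12879816, minus strand) belonged to genes among the 10 with the lowest mean rank in both replicates. That of twk-23 (chrX:13823576-13823676, minus strand) overlapped a region of rank 81 in the other replicate and was chosen after its values were seen. Capitals mark GGGCGG or its complement CCGCCC, the core of the GC box, which only the tim-1 window of these 4 held.
tim-1: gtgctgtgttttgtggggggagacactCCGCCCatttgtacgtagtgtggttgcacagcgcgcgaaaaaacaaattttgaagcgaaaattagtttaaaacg
sri-70: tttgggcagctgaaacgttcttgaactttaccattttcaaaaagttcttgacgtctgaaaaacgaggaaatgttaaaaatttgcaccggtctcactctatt
ZK896.5: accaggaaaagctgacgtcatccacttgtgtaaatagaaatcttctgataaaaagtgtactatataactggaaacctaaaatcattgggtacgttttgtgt
twk-23: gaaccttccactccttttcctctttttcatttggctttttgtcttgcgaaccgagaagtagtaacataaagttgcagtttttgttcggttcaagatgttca
No base lay in an annotated UTR in any of these windows. The tim-1, sri-70 and ZK896.5 windows were intergenic at every base. The twk-23 window also held coding sequence and a noncoding exon, and a noncoding gene starts within 200 bp of its summit. The same holds for the tim-1 and ZK896.5 summits of the pooled list, near which a noncoding gene starts within 200 bp.

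Start regions made up a share of each list close to the share of the genome that lies at starts. Their share was 10.6% in replicate 1 and 10.7% in replicate 2, with a mean of 10.6% ± 0.0968 (SD, n = 2). The sequence within 200 bp of a protein-coding start made up 10.1% of the same stretches. Counted by base, listed regions covered 10.4% of the start sequence in replicate 1, against 9.81% of the other sequence, and 10.9% of the start sequence in replicate 2, against 10.2% of the other sequence. Both replicates thus had slightly more start regions than the sequence share, by under 1 percentage point. With 2 samples no test between samples was possible, and regions are not replicates.

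Summit density around starts was nearly flat, and slightly above the mean from 100 bp upstream to 200 bp downstream in both replicates. In the 100 bp just upstream it was 1.08 times the mean over 1 kb on each side in replicate 1 and 1.07 times in replicate 2. In the first 100 bp downstream it was 1.07 times in replicate 1 and 1.104 times in replicate 2. From 100 to 200 bp downstream it was 1.07 times in replicate 1 and 1.08 times in replicate 2. The counting intervals of the bins within 200 bp of a start reached 0.0734 to 0.0758 to either side. Among these bins, the interval left out 1 just upstream in replicate 1 and in the first 100 bp downstream in replicate 2. No bin within 200 bp did so in both replicates. From 200 to 100 bp upstream, the relative density was 0.981 in replicate 1 and 0.994 in replicate 2. The summit lay upstream of the nearest start in 1491 of the 3077 start regions of replicate 1 (48.5%, exact Clopper-Pearson interval at 95% 46.7 to 50.2%) and in 1497 of the 3122 of replicate 2 (48.0%). Of all positions within 200 bp of a start, 49.3% were upstream. Summits therefore showed no preference for the upstream side at this precision, and the median signed distance was 7 bp downstream in both replicates.

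**Figure D1:**
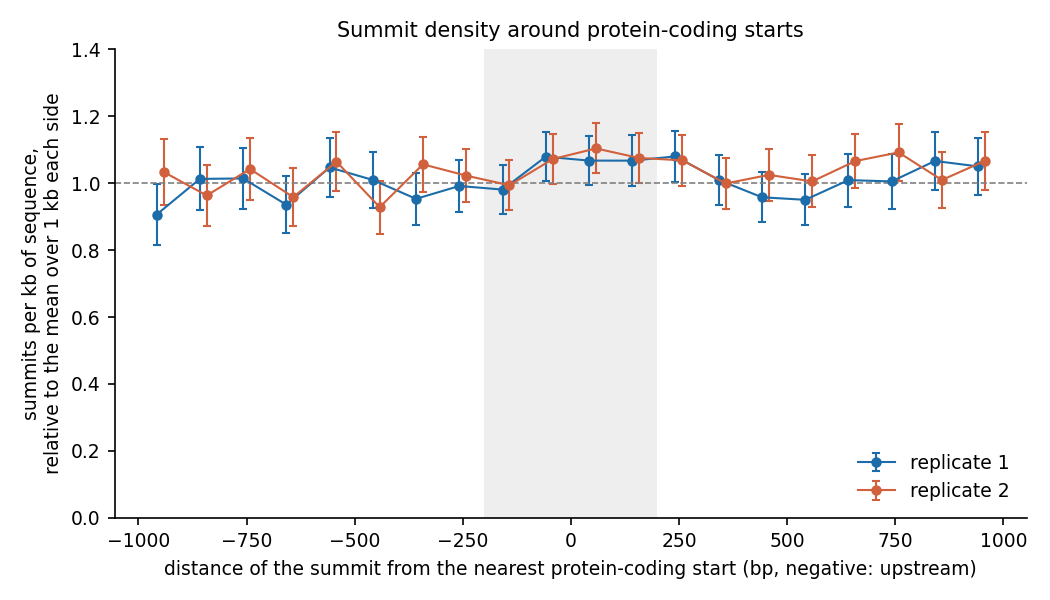
Summits per kb of sequence in 100 bp bins of distance from the nearest protein-coding start, relative to the mean over 1 kb on each side, with counting intervals at 95%; the shaded band marks the 200 bp window. Both replicates stay close to 1, with 1.07 to 1.104 in the 100 bp on either side of the start.

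Start regions ranked like other regions. The median rank was 15022 for start regions and 15058.5 for other regions in replicate 1. It was 14837.5 for start regions and 15035 for other regions in replicate 2. The difference, start regions minus other regions, was -36.5 ranks in replicate 1 and -197.5 in replicate 2, with a mean of -117 ± 114 (SD, n = 2), in lists of 30000. The median signal value was 9.78 for start regions and 9.77 for other regions in replicate 1, and 8.16 for start regions and 8.12 for other regions in replicate 2. The middle quartiles of the signal ran from 8.53 to 11.8 for start regions and from 8.51 to 11.8 for other regions in replicate 1. They ran from 7.02 to 9.97 for start regions and from 6.98 to 9.84 for other regions in replicate 2. The whole distributions thus lay nearly on top of each other in both replicates. The highest signal was 29.4 at a start and 34.3 elsewhere in replicate 1, and 20.3 at a start and 26.3 elsewhere in replicate 2. The 262 start regions of replicate 1 just inside the window, at 181 to 200 bp, had a median signal of 9.58, and the 291 regions just outside it, at up to 220 bp, had 9.75. In replicate 2 the 269 regions just inside had a median of 8.04 and the 266 just outside 8.08.

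Start regions reached the top of the lists at close to the background share. In replicate 1, 117 start regions ranked in the top 1000 (3.802%, interval 3.15 to 4.54%), against 830 other regions (3.19%, interval 2.98 to 3.41%). The background, the share of all regions over 200 kb from chromosome ends that ranked in the top 1000, was 3.25%. In replicate 2, 108 start regions did so (3.46%, interval 2.85 to 4.16%), against 854 other regions (3.28%, interval 3.07 to 3.50%), with a background of 3.3%. The intervals overlapped in both replicates, so these shares were near the background. By bins of rank, the share of regions at starts in replicate 1 was 12.4% at ranks 1 to 1000 (interval 10.3 to 14.6%), 10.7% beyond these up to 5000, 10.8% at 5001 to 10000, 10.04% at 10001 to 20000 and 10.7% at 20001 to 30000. In replicate 2 it was 11.2% in each of the first 3 bins, 10.4% at 10001 to 20000 and 10.5% at 20001 to 30000. The top 1000 thus stood above the next bin in replicate 1 only, with overlapping intervals. A q value under 0.05 was held by 5 start regions (0.162%) and 32 other regions (0.123%) of replicate 1, with a background of 0.127%. It was held by 1 start region (0.0320%) and 25 other regions (0.0960%) of replicate 2, with a background of 0.0891%. The 5 in replicate 1 were at Y44E3A.1, tebp-2, rnp-9, C34B4.4 and dhps-1, and the 1 in replicate 2 was at srp-1.

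**Figure D2:**
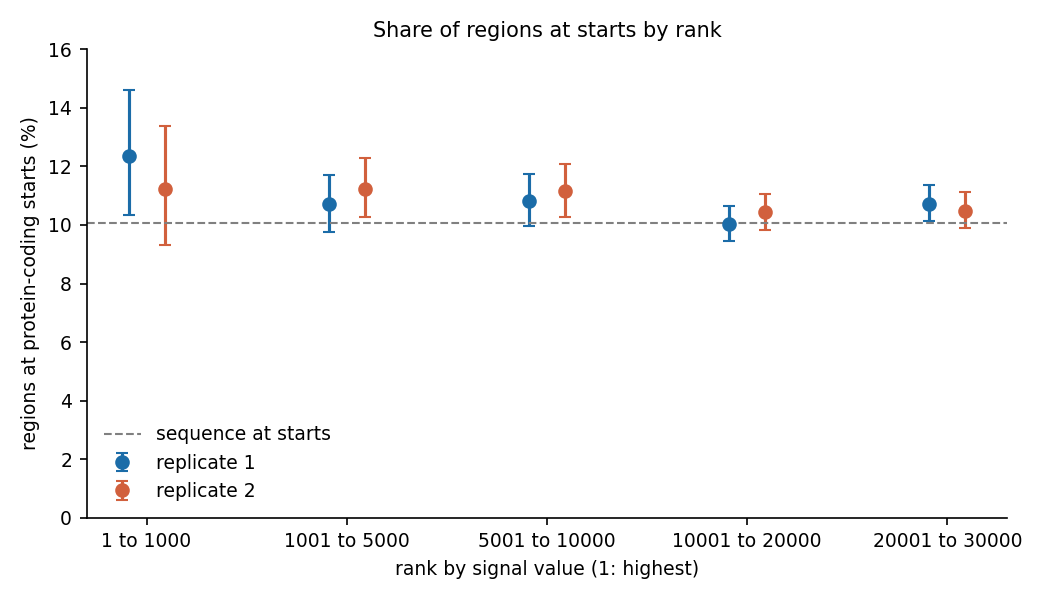
Share of regions at protein-coding starts in bins of rank by signal value, with exact intervals at 95%; the dashed line is the share of sequence at starts. The share is 12.4% in replicate 1 and 11.2% in replicate 2 at ranks 1 to 1000, and 10.7% and 10.5% at ranks 20001 to 30000.

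Start regions recurred between the replicates about as often as other regions. In replicate 1, 853 start regions shared at least 1 bp with a region of the replicate 2 list (27.7%, interval 26.1 to 29.3%), against 7226 other regions (27.7%, interval 27.2 to 28.3%), with a background of 27.7%. In replicate 2, 850 start regions overlapped the replicate 1 list (27.2%, interval 25.7 to 28.8%), against 7283 other regions (27.96%, interval 27.4 to 28.5%), with a background of 27.9%. The difference, start regions minus other regions, was -0.38 percentage points ± 0.503 (SD, n = 2). By a stricter measure, the summit fell inside a region of the other list for 18.5% of start regions and 18.3% of other regions in replicate 1, and for 17.7% of start regions and 17.8% of other regions in replicate 2. Both classes exceeded the 9.81 to 10.9% of sequence that the lists covered. Each replicate list was made with 1 further file that was the same for both, so the lists share an input besides the larvae; its part in this overlap was not tested. Of the start regions, 596 in replicate 1 and 602 in replicate 2 overlapped a start region of the other list.

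Overlapping start regions did not keep their rank from one replicate to the other. Over the 899 overlapping pairs whose replicate 1 member was a start region, Spearman's rho of the signal values was -0.0467, and over the 7595 pairs whose replicate 1 member was another region it was 0.0224. These are descriptions over regions that come from the same 2 libraries. Among start regions of the top 1000, 45 of 117 in replicate 1 overlapped any region of the other list, against 277 of 830 other regions, and 35 of 108 in replicate 2, against 278 of 854 other regions. A region in the top 1000 of the other list was overlapped by 4 of the 117 start regions and by 12 of the 830 other regions in replicate 1. In replicate 2 it was 3 of the 108 start regions and 13 of the 854 other regions.

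Counted by gene, 2968 of the 19475 protein-coding genes with a start over 200 kb from chromosome ends (15.2%) had a start region in replicate 1, and 2973 (15.3%) had one in replicate 2. In all, 735 genes (3.77%) had one in both, which was 24.8% of the genes of replicate 1 and 24.7% of those of replicate 2. For 528 of the 735 the best-ranked start regions of the replicates overlapped, and for the rest they did not. The median best rank of the 735 genes was 13382 in replicate 1 and 13546 in replicate 2. For 30 of them both ranks were within 5000, and for 271 (36.9%) both were beyond 10000. A start region of the top 1000 was found at 120 genes in replicate 1 (0.616%) and at 108 genes in replicate 2 (0.555%). Of the 120, 37 (30.8%) had any start region in replicate 2, and of the 108, 31 (28.7%) had one in replicate 1.

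Only 2 genes (0.0103%) had a start region in the top 1000 of both replicates, T26E3.6 and T05H4.15. T26E3.6 (WBGene00012039, chromosome I, 12661254 to 12661732, plus strand) had a region at 12661212 to 12661547 in replicate 1, of rank 468 and signal value 18.2. Its region in replicate 2, at 12661223 to 12661572, had rank 153 and signal value 17.2. Both summits lay in coding sequence, 126 bp downstream of the start in replicate 1 and 144 bp in replicate 2, and the regions shared 325 bp. The q values were 0.375 in replicate 1 and 0.115 in replicate 2, so neither list alone held the region under 0.05. T05H4.15 (WBGene00020276, chromosome V, 6440174 to 6441713, minus strand) had a region at 6441371 to 6441706 in replicate 1, of rank 595 and signal value 17.6. In replicate 2 the region at 6441305 to 6441654 had rank 988 and signal value 13.998. Its summits lay in coding sequence 97 bp downstream of an internal start in replicate 1 and 156 bp in replicate 2. With only the outermost start of each gene, T26E3.6 alone met the rule. The q values were 0.421 in replicate 1 and 0.329 in replicate 2. Neither gene had GGGCGG within 50 bp of either summit.

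In 3 further places a start region of the top 1000 in one list overlapped a top 1000 region of the other whose summit was just beyond 200 bp from the start. They were sought after the values were seen. At tim-1, the worm gene named for its similarity to Timeless, the summit lay 188 bp upstream at rank 258 in replicate 2, and 240 bp upstream at rank 600 in replicate 1. GGGCGG lay within 50 bp of both tim-1 summits, and a noncoding gene starts within 200 bp of them. At twk-23, which encodes a potassium channel of the TWK family, the summit lay 44 bp upstream at rank 87 in replicate 1, and 230 bp downstream at rank 81 in replicate 2. At ubql-1, the ubiquilin gene, it lay 52 bp upstream at rank 213 in replicate 1, and 260 bp upstream at rank 411 in replicate 2. A noncoding gene starts within 200 bp of the ubql-1 summit of replicate 2 and not of that of replicate 1. The twk-23 regions shared 69 bp and their summits were 274 bp apart.

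The 10 genes with the lowest mean rank over both replicates included 8 besides that pair. The chemoreceptor gene sri-70 had ranks 1263 and 697 in replicates 1 and 2, with summits 87 and 182 bp upstream in intergenic sequence, and the first of these is the middle of the window shown above. The genes T23F6.3 and rbd-1, whose product takes part in ribosomal RNA processing, start from the same intergenic stretch, and shared 1 region of rank 944 in replicate 1. In replicate 2 T23F6.3 had a region of rank 1647 there, while the best one of rbd-1, of rank 1238, lay at another start. C04F1.1 had ranks 391 and 1942, K02E10.5 ranks 586 and 3045, and R11G10.4 ranks 3345 and 691. ZK896.5 had ranks 2361 and 846, and its summits were 122 and 121 bp upstream, within 1 bp of each other. C55B7.11 had ranks 3900 and 161 at a region that it shared with the start of glh-2, a germline helicase gene related to Vasa with the same ranks. For 6 of these 10 genes, including T26E3.6 and T05H4.15, both ranks were within 2000.

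**Figure D3:**
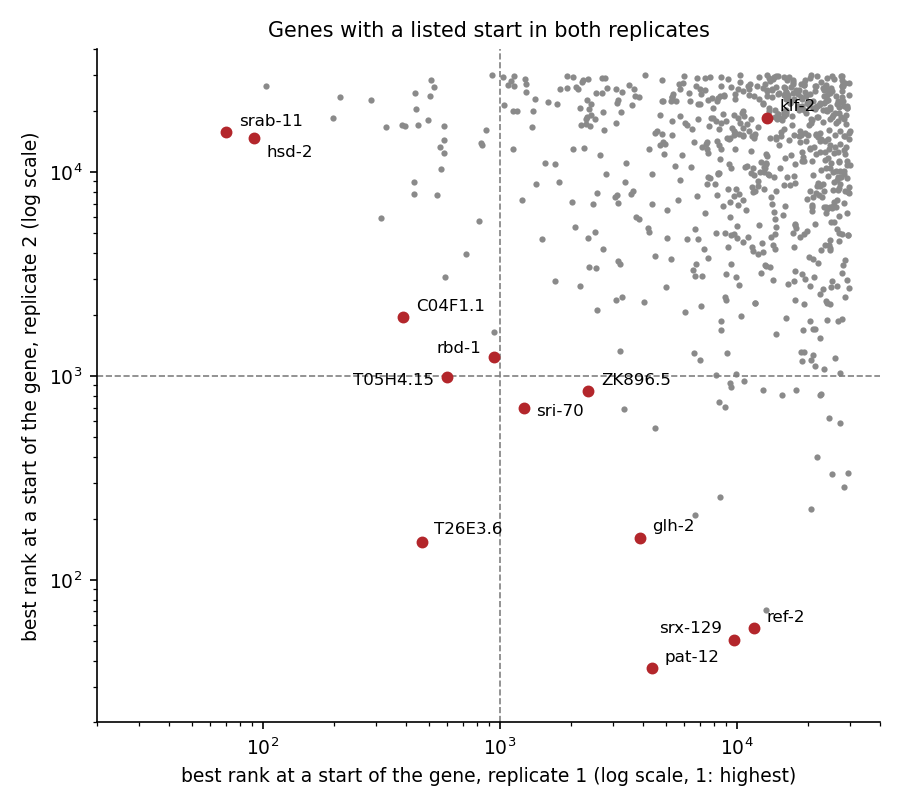
Best rank at a start in replicate 1 against replicate 2 for the 735 genes with a start region in both (log axes), with dashed lines at rank 1000 and 13 named genes in red. T26E3.6 and T05H4.15 are the 2 genes below 1000 on both axes, and genes near the top of one list, such as srab-11 or ref-2, lie far down in the other.

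The highest start regions of one replicate were mostly low or absent in the other, as were other regions of the top 1000. In replicate 1 the highest was at an internal start of Y44E3A.1, in coding sequence (chromosome I, 3339573 to 3339908), with rank 5, signal value 29.4 and q 0.0141. It had no overlapping region in replicate 2. The start region of tebp-2, which encodes a telomere-binding protein, had rank 9 and signal value 25.9, and the region that overlapped it in replicate 2 had rank 26750. Those of rnp-9, an RNA-binding protein gene, C34B4.4 and dhps-1, the deoxyhypusine synthase gene, had ranks 21, 22 and 27, with no overlapping region in replicate 2. The region at F13C5.2 had rank 47, and its overlap in replicate 2, with the summit 263 bp upstream, rank 3225. That at the chemoreceptor gene srab-11 had rank 70 and overlapped regions of rank 6062 and 15741. That at an internal start of Y37E3.8 had rank 73 and no overlap. A noncoding gene starts within 200 bp of the summits at rnp-9 and Y37E3.8. Of these 8 highest start regions, 3 overlapped the replicate 2 list, and none of the overlapped regions was in its top 1000. The background of overlap was 27.7% over all regions of replicate 1. Among its other regions of the top 1000, 33.4% overlapped any region of replicate 2 and 1.45% one of its top 1000. These counts therefore do not set the 8 regions apart.

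In replicate 2 the highest start region was at srp-1, a serpin gene (chromosome V, 752954 to 753303), with rank 26, signal value 20.3 and q 0.0189, and it had no overlap in replicate 1. The region at hlh-4, a bHLH transcription factor gene, had rank 35 and that at dod-20 rank 68. That at an internal start of pat-12, needed for the attachment of muscle to the body wall, had rank 37. None of these overlapped a region of replicate 1. In replicate 1 pat-12 had a start region of rank 4380 at another internal start, with 0 bp shared. The regions at amx-2, an amine oxidase gene, cic-1, the cyclin C gene, srx-129, a chemoreceptor gene, and ref-2, a Zic-family transcription factor gene, had ranks 41, 45, 51 and 58. They overlapped replicate 1 regions of rank 11010, 10192, 9756 and 11805. At ref-2 the summits were close, 181 bp downstream of the start in replicate 2 and 192 bp in replicate 1. The cic-1 summits lay 177 bp downstream in replicate 2 and 210 bp in replicate 1. Those of srx-129 lay at 0 bp and 146 bp downstream, and those of amx-2 31 bp and 219 bp upstream. At these 4 genes the regions overlapped and the rank did not recur. The background of overlap was 27.9% over all regions of replicate 2. No start region of the genes chosen by the naming rule, in either replicate or in the pooled list, had another copy in the genome at 90% identity or more over at least 50% of its length. The twk-23 and ubql-1 regions, and overlapping regions that were not start regions, were not searched.

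The pooled list, made by the authors from both replicates, held 21 start regions among 176 regions over 200 kb from chromosome ends (11.9%, interval 7.54 to 17.7%). Their signal values ran from 29.0 to 36.3 with a median of 30.5, against 29.0 to 57.3 with a median of 30.9 for the other 155 regions. Of the 21, 18 overlapped a region in both replicates, 12 overlapped best-ranked regions that were start regions in both, and 2 overlapped a top 1000 region in neither. The 10 highest were at tim-1 (signal value 36.3), Y44E3A.1 (35.7), F13C5.2 (35.7), T26E3.6 (34.5), ref-2 (31.8), glh-2 with C55B7.11 (31.3), C07H4.1 (31.2), hsd-2 (31.1), dhps-1 (31.0) and cic-1 (30.8). Their q values in the pooled list ran from 0.273 at F13C5.2 to 0.967 at C07H4.1, so none was under 0.05. At tim-1 it was 0.391 and at Y44E3A.1 0.310. The starts at Y44E3A.1 and C07H4.1 were internal ones. For 9 regions of the pooled list the q value was above 1, up to 1.07, so the scale of that column is uncertain. hsd-2 belongs to a hydroxysteroid dehydrogenase family, and its region had rank 92 in replicate 1 and 14653 in replicate 2. In the authors' optimal list 3 of 17 regions were at starts (17.6%, interval 3.799 to 43.4%), those of tim-1, Y44E3A.1 and F13C5.2, and all 3 summits lay upstream of the nearest start. The lists share their reads with the replicate lists and are no independent evidence.

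The GC box core was more frequent at start regions than at other regions, by about as much as start sequence in general differs from other sequence. GGGCGG on either strand within 50 bp of the summit was found in 66 start regions of replicate 1 (2.14%, interval 1.66 to 2.72%), against 359 other regions (1.38%, interval 1.24 to 1.53%), with a background over all regions of 1.46%. In replicate 2 it was found in 71 start regions (2.27%, interval 1.78 to 2.86%), against 420 other regions (1.61%, interval 1.46 to 1.77%), with a background of 1.68%. When each position of the same stretches was taken in place of a summit, 2.20% of the windows in start sequence and 1.53% of those in other sequence held GGGCGG. The shares at start regions thus lay within 0.1 percentage points of the share in start sequence. Among start regions of the top 1000, 2 of 117 held it in replicate 1 (1.71%, interval 0.208 to 6.04%), against 13 of 830 other regions (1.57%). In replicate 2, 7 of 108 did (6.48%, interval 2.65 to 12.9%), against 10 of 854 other regions (1.17%, interval 0.563 to 2.14%). These 7 were at tim-1, lsy-12, madd-3, mig-38, pes-10, T14B1.1 and T26H5.8, and were named after their values were seen. That share stood above the start sequence in replicate 2 and not in replicate 1. The related element GGGTGTG was found in 0.682% of start regions and 0.434% of other regions in replicate 1, and in 0.320% of start regions and 0.449% of other regions in replicate 2, with backgrounds of 0.46% and 0.435%, so its order differed between the replicates. A match says only that the letters are present.

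GC content moved with the GC box. Windows of the same width at start regions averaged 36.3% GC in replicate 1, against 35.1% at other regions, and 37.5% in replicate 2, against 36.2% at other regions. All windows in start sequence averaged 36.4% GC and all in other sequence 35.3%. The difference between start and other regions was 1.27 percentage points ± 0.0269 (SD, n = 2). Both classes were richer in GC in replicate 2 than in replicate 1. Within the start regions, the Spearman correlation of GC content with signal was 0.0181 in replicate 1 and 0.0487 in replicate 2, a description over regions of 1 library each.

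**Figure D4:**
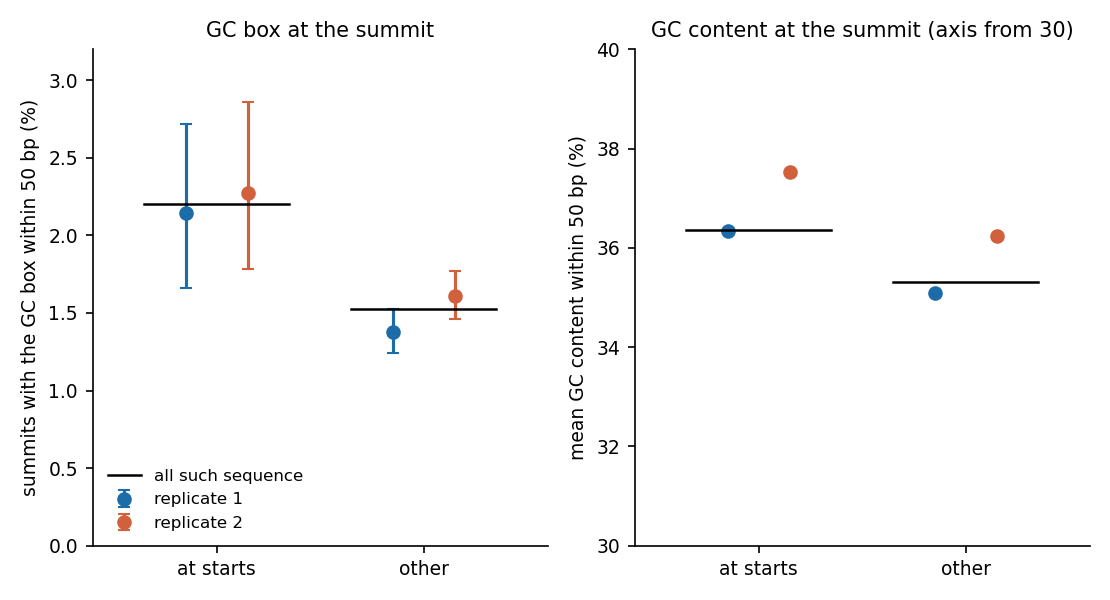
Share of summits with the GC box core within 50 bp (left, with exact intervals at 95%) and mean GC content (right, axis from 30%) in start regions and other regions of each replicate; black lines are all windows of the same sequence class. Start regions lie at 2.14% and 2.27% for the GC box, beside 2.20% for all start sequence, and other regions at 1.38% and 1.61%, beside 1.53%.

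The start regions differed from other regions in the annotated features under the summit, again as the sequence itself does. In replicate 1, 32.9% of start regions had the summit in coding sequence, against 24.3% of other regions, and in replicate 2 33.7%, against 27.6% of other regions. Coding sequence made up 31.98% of start sequence and 23.9% of other sequence. Introns held 22.002% of start summits in replicate 1 and 22.1% in replicate 2, against 21.1% of start sequence, and UTRs 11.2% and 11.4%, against 12.2% of start sequence. The remainder was mostly intergenic. Among start regions, the intergenic ones had a top 1000 share of 4.05% in replicate 1 and 3.75% in replicate 2, and the coding ones 2.86% in replicate 1 and 3.42% in replicate 2, with overlapping intervals. A start of a noncoding gene lay within 200 bp of 153 start regions in replicate 1 (4.97%), against 6.93% of other regions, and of 178 in replicate 2 (5.70%), against 7.06% of other regions. Starts of 2 or more protein-coding genes were within reach of 58 start regions in replicate 1 (1.88%) and 54 in replicate 2 (1.73%).

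The share of regions at starts differed between chromosomes, as does the share of sequence at starts. It was highest on chromosome V, at 12.1% in replicate 1 and 12.6% in replicate 2, where 11.7% of the sequence lies at starts. It was lowest on the X chromosome, at 8.30% in replicate 1 and 8.73% in replicate 2, where 8.03% of the sequence does. On the X chromosome of replicate 1, 27 of 437 start regions (6.18%) were in the top 1000, against 147 of 4831 other regions (3.04%). In replicate 2 it was 17 of 459 start regions (3.70%), against 176 of 4796 other regions (3.67%), so the higher share was seen in replicate 1 alone. The X chromosome was not the only one with such a gap. On chromosome I the shares were 5.06% against 3.16% in replicate 1, and 3.46% for both classes in replicate 2. On chromosome III they were 2.92% against 2.94% in replicate 1, and 4.94% against 2.96% in replicate 2.

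The 20 gene lists showed shares on both sides of all genes. Over all protein-coding genes, 15.2% had a start region in replicate 1, 15.3% in replicate 2 and 3.77% in both. Of the 19 lists with 20 or more genes, 5 had a larger share of genes with a start region than all protein-coding genes in both replicates, 7 a smaller share in both, and 7 a larger share in 1 replicate. Potassium channel genes had the largest share in replicate 1, 18 of 63 genes (28.6%), and 14 in replicate 2 (22.2%), where mitochondrial respiration genes had 10 of 44 (22.7%). The channel genes with a start region in both were 4, irk-3, kvs-2, kvs-5 and unc-103. These genes also had more annotated starts, 2.71 per gene against 1.496 over all genes. Per 100 kb of start sequence they held 41.8 start regions in replicate 1 (exact Poisson interval 26.5 to 62.8) and 29.1 in replicate 2 (16.6 to 47.3), against 31.2 and 31.7 over all genes. Histone genes had small shares in both replicates, with 3 of 59 genes in replicate 1 (5.08%) and 5 in replicate 2 (8.47%). Per 100 kb they held 10.3 start regions in replicate 1 (2.13 to 30.2) and 17.2 in replicate 2 (5.60 to 40.2). Only the interval of replicate 1 left out the value of all genes. Histone genes occur in near-identical copies, so how the authors placed reads of repeats bears on their regions, and this was not tested. Cytosolic ribosomal protein genes had 8 of 78 in replicate 1 (10.3%) and 16 in replicate 2 (20.5%), with rpl-42 alone in both. Nuclear hormone receptor genes had 50 of 269 in replicate 1 (18.6%) and 46 in replicate 2 (17.1%). Of the 269, 16 had one in both (5.95%), among them daf-12, which encodes the receptor for dafachronic acids. The receptor genes also had more annotated starts than all genes, 1.72 per gene. Per 100 kb they held 36.7 start regions in replicate 1 (27.6 to 47.9) and 33.3 in replicate 2 (24.6 to 44.0). Both intervals include the value of all genes. Chemoreceptor genes, the largest list, had 176 of 1293 in replicate 1 (13.6%) and 199 in replicate 2 (15.4%). In 0 of the 19 lists did the interval of start regions per 100 kb leave out the value of all genes in both replicates, and no list had a gene in the top 1000 of both.

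**Figure D5:**
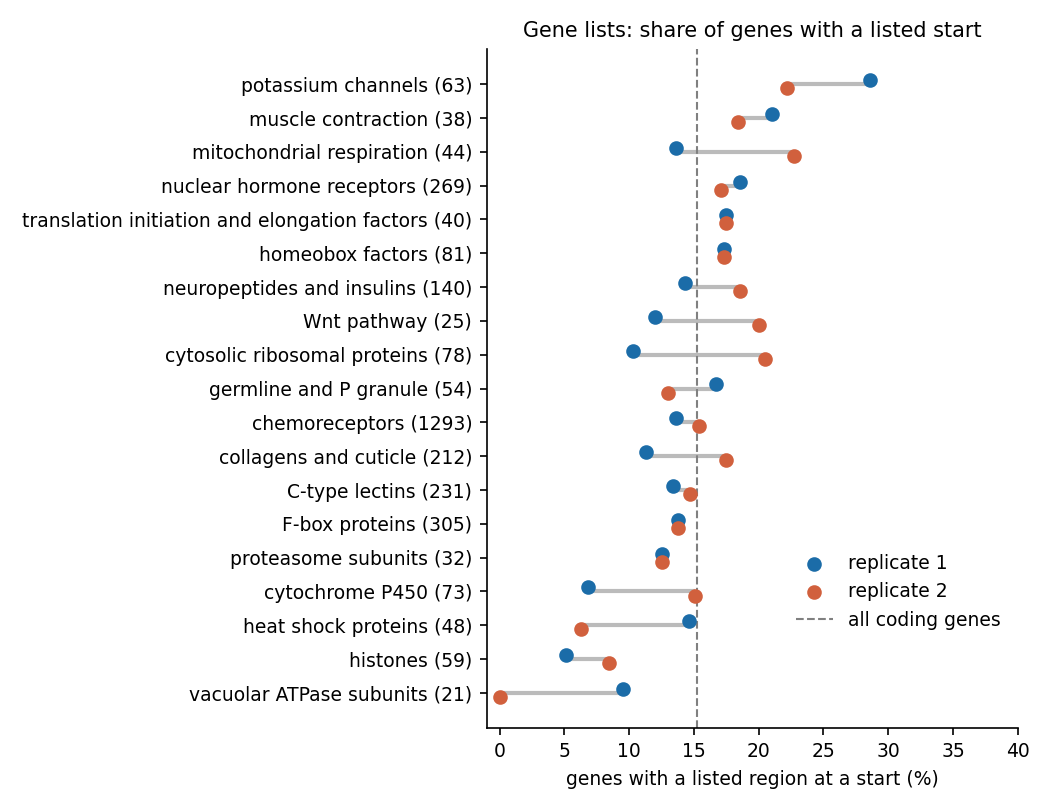
Share of genes with a start region in each replicate for the 19 gene lists of 20 or more genes (number of genes in brackets), with the share of all protein-coding genes as a dashed line. Most lists lie within a few percentage points of the line or on both sides of it; potassium channels lie above it, at 28.6% and 22.2%, and histones below it, at 5.08% and 8.47%.

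Of the 6 Sp and KLF genes of the worm, the family of SPTF-1 itself, 2 had a start region in either replicate. Over all protein-coding genes, 5206 of 19475 had one in either replicate. With 6 genes no difference from that share can be read. klf-2 had one of rank 13434 in replicate 1 and one of rank 18491 in replicate 2, at different starts with 0 bp shared. klf-3 had one in replicate 2, of rank 27535 and 42 bp downstream of the start. sptf-1, sptf-2, sptf-3 and klf-1 had none, and the nearest region to a start of sptf-1 lay 14467 bp upstream in replicate 1 and 15611 bp upstream in replicate 2.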

How the data were processed

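Measured was the eGFP-tagged SPTF-1 ChIP of 2 biological replicates of L1 larvae. The deposited signal value, −log10 q value and score of each region are the authors' own, per the file records and the format's column order. Per the file records, each replicate list came from the alignment of that replicate and from 1 further undescribed file used for both. The aligner and caller are not given in the sources used here. Of the authors' lists, those on ce11 were used and those on ce10 were not, nor was the column for score.

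Summits were set against 29784 distinct starts of protein-coding transcripts in the Ensembl annotation (release 115) of WBcel235, which is ce11, and windows were read from the RefSeq sequence of that assembly. Regions were ranked by signal value (ties took the lowest number; 20 regions in replicate 1 and 38 in replicate 2 were tied), and overlapped when they shared at least 1 bp. Shares have exact Clopper-Pearson intervals at 95%, and densities exact Poisson intervals. These cover counting error only, for regions are not independent replicates, and no test across regions or genes was run. Named were the genes in the top 1000 of both replicates, the 10 of lowest mean rank, those of the 8 highest start regions of each replicate, those at starts in the optimal list and the 10 highest in the pooled list, and the Sp and KLF genes. The members, lists and tests were chosen with earlier results of these data known. The name patterns of 4 gene lists were corrected after genes of other families, such as serpins, were seen among their matches. Each alternative is described in the closing section. The software was numpy 2.4.6, scipy 1.17.1, pandas 2.3.3 and matplotlib 3.10.9 under Python 3.11.15, copies were searched with blastn 2.17.0, and the distance and overlap steps were tested on simulated data.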

Additional observations from a re-analysis of the deposited data

How the results depend on the processing

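Of 77 recomputed values, 51 moved by less than the spread between replicates (counts: less than 1.5 times) and 26 moved further. Of all these values, 2 changed sign. The 51 include the values with 1 replicate left out, which with 2 replicates cannot move by more than the spread. For Spearman's rho, a single value over both replicates, the spread was a half-width of 0.0655 set by the number of pairs. No value had a test to gain or lose. Regions at starts made up 5.65% with a 100 bp window, 23.9% with 500 bp and 8.22% with the outermost start of each gene. The sequence shares at these settings were 5.23%, 23.2% and 7.85%, each slightly lower. That both shares rise with a wider window follows by construction, while their closeness was measured. The share was 10.8% without regions at a noncoding start, 11.9% in the pooled list and 17.6% in the optimal list. The rank difference turned to 119.25 with the outermost start, and the overlap difference to 0.0257 percentage points with a reciprocal overlap of 50%; the cause was not tested. Genes in the top 1000 of both were 0 with 100 bp, 8 with 500 bp and 1 with the outermost start (T26E3.6). They were 1 in the top 500 (T26E3.6), 6 in the top 2000, and 5 where 1 summit sufficed and the regions overlapped, an alternative added after seeing the data. Upstream summits were 49.4% with 100 bp, 47.2% with 500 bp, 47.1% with the outermost start, 47.8% without noncoding starts and 57.1% in the pooled list. The GGGCGG difference was 0.365 percentage points with 500 bp, 1.33 in windows reaching 100 bp to each side of the summit and 0.0598 for GGGTGTG. The GC difference was 1.61 percentage points with 100 bp, 0.556 with 500 bp, 0.661 with the outermost start, 1.12 without noncoding starts and 1.11 over whole regions.

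Leaving out each replicate gave a share of 10.6 to 10.7%, a rank difference of -197.5 to -36.5 and a top 1000 difference of 0.18 to 0.615 percentage points. It gave an overlap difference of -0.737 to -0.0257, upstream summits of 48.0 to 48.5%, a GGGCGG difference of 0.662 to 0.766 and a GC difference of 1.25 to 1.29 percentage points. No paired analysis was possible because the labels give 1 group, so no other group shares the replicate numbers; differences between start and other regions were taken within each replicate. Unknown read depth and fixed region widths of 336 and 350 bp limit how finely a summit is placed.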
